A study of Mus musculus with 12 samples.

Results

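The genes described here carry out glycolysis or belong to the transcriptional response to low oxygen. They were chosen by name, as a list of 40 genes, and 37 of them had a probe set of their own among the 19938 genes measured. RNA came from KY-1 and KY-2, mouse natural killer (NK) cell lines that are both p53KO (without the tumour suppressor p53), and the medium of every culture held human IL-15 at 200 U/mL. Cells received either a vector for GFP followed by FLAG-tagged Myb (GFP-P2A-FLAGMyb, called the Myb vector) or a vector for GFP alone, and GFP+ cells were sorted. Myb is a transcription factor of blood progenitors, and the series was made for a study of microRNA-15/16, c-Myb and NK cell maturation. The groups were KY-2 with the Myb vector (3 arrays), KY-2 with GFP (2 arrays), KY-1 with the Myb vector (4 arrays) and KY-1 with GFP (3 arrays). Each of the lines is a single cell line, so a difference between them is one between these lines and not between kinds of NK cell.

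Glycolysis splits glucose into pyruvate in the cytosol. Pyruvate is then either reduced to lactate and exported, or oxidised in mitochondria by pyruvate dehydrogenase, which the pyruvate dehydrogenase kinases switch off. Hypoxia-inducible factor (HIF) is a pair of proteins whose alpha subunit is hydroxylated and destroyed while oxygen is present, and when it accumulates it raises most genes of glycolysis and others for angiogenesis, mitophagy and collagen folding. NK cells are known to increase glucose uptake and glycolysis when stimulated with cytokines such as IL-15.

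Among the 12 arrays, 2 pairs were closer to each other than separate samples were: Myb 3 with Myb 4, and GFP 1 with GFP 2, all in KY-1. They differed little, with robust SDs of their log2 differences of 0.0433 to 0.0469 against 0.102 to 0.172 for the other pairs within groups. These SDs come from the median absolute deviation over 10624 probe sets with a mean above 7. Each close pair was counted as 1 replicate, which left 10 replicates, 2 per GFP group and 3 per Myb group. The KY-1 arrays also fell into 2 sets that deviated together from their group means, GFP 1 and 2 with Myb 3 and 4 against GFP 3 with Myb 1 and 2. KY-2 arrays shared part of this. Deviations of KY-2 Myb array 2 correlated at 0.278 to 0.317 with the first set and at -0.375 to -0.075 with the second. Those of KY-2 Myb array 1 correlated at -0.263 to -0.213 with the first set and at -0.008 to 0.37 with the second. No label names a batch. Myb itself read 9.80, 9.67 and 9.75 in KY-2 Myb arrays against 5.0 and 5.10 in KY-2 GFP arrays, and 9.54 to 9.59 in KY-1 Myb arrays against 7.92 to 8.04 in KY-1 GFP arrays, as the labels have it. As a plain description, since probe sets differ in brightness, group means above 8 on the log2 scale were found for 10 of 14 NK markers in KY-2 Myb, 11 in KY-2 GFP, 11 in KY-1 Myb and 12 in KY-1 GFP cells. This held for 3 of 9 T cell markers in both KY-2 groups and none in KY-1, for 1 of 8 mast cell and basophil markers in KY-2 GFP, KY-1 Myb and KY-1 GFP cells and none in KY-2 Myb cells, and for no B cell, myeloid or erythroid marker.

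The levels are log2 values of RNA per array, and a level of one probe set cannot be set against that of another. No probe set with a single symbol was listed for Gpi1 or Eno1, and the 25 probe sets for Gapdh all carried several symbols, so these 3 genes were not measured here. Hk3, Aldoc, Eno2, Pdk2, Pfkfb4 and Egln3 lay below the array median on all 12 arrays, and Ldhb on 11. The brightest probe set for Hk1 followed most probe sets listed for the ribosomal gene Rpl17, with a median correlation of 0.697 over the 12 arrays as a description. These correlations ran from -0.377 to 0.822, and 16 of the 17 Rpl17 sets were also listed for Hk1. A dimmer Hk1 set, matched to its RefSeq transcripts, had a median correlation of -0.0204 with the Rpl17 sets. Its values are given beside those of the brightest set. Pgk1 and Pgam1 each had a further probe set with the same values on all 12 arrays, and glycolytic genes have near-identical pseudogene copies, so signals of Pgk1 and Pgam1 may be shared with copies and are uncertain to that extent. Bnip3, Bnip3l, Pkm and Ldhb also had another probe set each, and whether any of their sets reads a copy as well was not tested.

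Few glycolysis and HIF genes passed the test for the Myb vector. In KY-2 the mitophagy gene Bnip3 rose and the glucose transporter Slc2a3 fell, 2 of 37 members (5.41%) against 2.83% of all genes called at an adjusted p under 0.05 (limma, Benjamini-Hochberg over all 19938 genes). In KY-1 the pyruvate dehydrogenase kinase Pdk3 rose and no member fell, 1 of 37 (2.70%) against 1.22% of all genes. Averaged over the lines, Pdk3, Bnip3 and the lactate transporter Slc16a1 rose and none fell, 3 of 37 (8.11%) against 3.1% of all genes. The Myb effect itself differed between the lines for Pdk3 alone among the members, 1 of 37 against 0.843% of all genes.

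**Figure D1:**
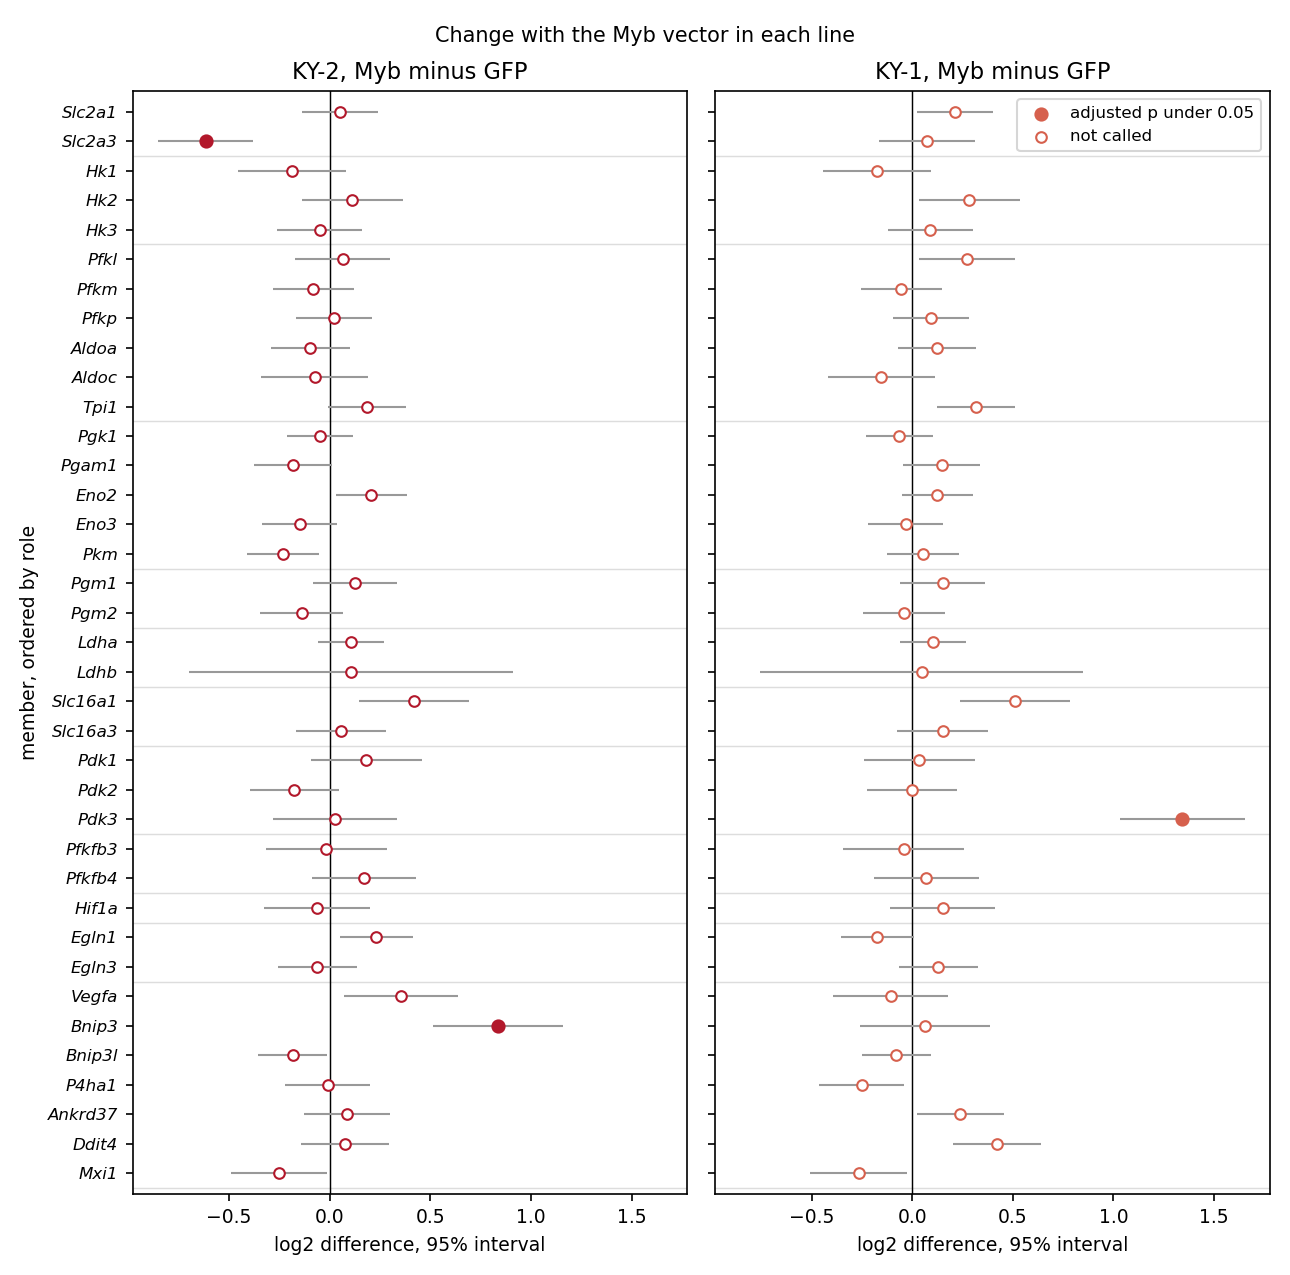
Log2 difference, Myb vector minus GFP, with its 95% interval for each of the 37 members (rows, ordered by role, grey lines between roles) in KY-2 (left) and KY-1 (right). Filled points passed the limma test: Bnip3 (0.83) and Slc2a3 (-0.62) in KY-2, and Pdk3 (1.34) in KY-1.

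The median log2 difference of the members was 0.02 in KY-2, where that of all genes was 0.01, and 0.07 in KY-1, where that of all genes was 0.00. At an unadjusted p under 0.05, 9 members (24.3%) differed in KY-2, against 13.2% of all genes, and 10 (27%) in KY-1, against 11% of all genes. In KY-2 the arrays of the Myb and GFP groups did not overlap for 18 members, 10 higher and 8 lower with Myb, or 48.6% against 31% of all genes. In KY-1 this held for 12 members, 8 higher and 4 lower, or 32.4% against 19% of all genes. More members thus separated by array than passed the adjusted test. The same was true of all genes, of which 31% separated and 2.83% passed in KY-2, and 19% separated and 1.22% passed in KY-1. Whether replicates came from separate cultures is not given in the labels, so each p reflects how far these samples spread, and that spread may be technical only. In bulk RNA, fewer cells with a transcript and less of it per cell cannot be told apart.

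The promoters of the 3 members that rose in the average of the lines are shown because HIF binds the core letters ACGTG or GCGTG, and Myb binds sites built on AACGG or AACTG. Each sequence holds the 250 bases before the RefSeq start of the gene (GRCm38.p6), read 5′ to 3′ on the strand of the gene, and capitals mark every match to these letters on either strand.
Pdk3 (chrX:93832151-93832400, minus strand): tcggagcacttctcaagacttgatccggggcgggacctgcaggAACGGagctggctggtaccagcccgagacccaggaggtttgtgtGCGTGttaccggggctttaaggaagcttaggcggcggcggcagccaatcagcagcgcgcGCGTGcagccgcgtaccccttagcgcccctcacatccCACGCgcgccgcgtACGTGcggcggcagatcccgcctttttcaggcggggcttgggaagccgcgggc
Slc16a1 (chr3:104638414-104638663, plus strand): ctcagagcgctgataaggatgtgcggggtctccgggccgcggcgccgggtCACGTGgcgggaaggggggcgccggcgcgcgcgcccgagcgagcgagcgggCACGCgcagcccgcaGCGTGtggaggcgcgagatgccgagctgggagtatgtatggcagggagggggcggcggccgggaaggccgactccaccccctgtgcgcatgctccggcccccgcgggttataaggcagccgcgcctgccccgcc
Bnip3 (chr7:138909507-138909756, minus strand): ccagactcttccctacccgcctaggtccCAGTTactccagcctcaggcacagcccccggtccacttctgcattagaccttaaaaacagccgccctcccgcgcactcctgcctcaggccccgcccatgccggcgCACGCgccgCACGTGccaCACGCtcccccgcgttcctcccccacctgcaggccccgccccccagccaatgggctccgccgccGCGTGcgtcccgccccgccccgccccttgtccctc

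Pdk3 held 1 ACGTG, 53 bases before the start, together with 3 GCGTG and 1 AACGG, the last 207 bases before the start. Slc16a1 held the E-box CACGTG, whose letters contain ACGTG on both strands, 200 bases before the start, and 2 GCGTG, but neither Myb letter group. Bnip3 held CACGTG 108 bases before the start, 3 GCGTG, and 1 AACTG on the other strand. Over the 55 windows of the 38 members with an entry in RefSeq, either HIF core was found in 80% of windows, against 38.6% of all 32851 windows. ACGTG alone was in 52.7% against 16.6%, and the E-box in 12.7% against 6.02%. The Myb letters did not stand out in this way, with AACGG in 16.4% of member windows against 14.5% of all, and AACTG in 32.7% against 39.1%. Member windows also held more CG pairs, a median of 14 against 6, and HIF cores contain one, so these shares are a description of the letters only.

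Pdk3, one of the kinases that phosphorylate and inactivate pyruvate dehydrogenase, was at 8.30, 8.50 and 8.52 in KY-2 Myb arrays and at 8.55 and 8.27 in KY-2 GFP arrays. In KY-1 it was at 7.59, 7.41, 7.61 and 7.61 in Myb arrays and at 6.41, 6.43 and 5.96 in GFP arrays. The KY-2 groups overlapped, whereas every KY-1 Myb array lay above every KY-1 GFP array and below every KY-2 array. The rise in KY-1 was 1.34 ± 0.14 (SE) on the log2 scale, or 2.54-fold (limma adjusted p = 0.000836), and it was 1.18 in one set of KY-1 arrays and 1.54 in the other. The change in KY-2 was 0.03 ± 0.14 (adjusted p = 0.968), with a 95% interval of -0.28 to 0.34. The effect in KY-2 minus that in KY-1 was -1.32 ± 0.20 (adjusted p = 0.00895). This last call rested on KY-2 GFP array 1, without which the difference was -1.18 with an adjusted p of 0.0613 in limma. Of the other pyruvate dehydrogenase kinases, Pdk1 differed by 0.18 ± 0.13 in KY-2 and 0.04 ± 0.13 in KY-1, and Pdk2 by -0.18 ± 0.10 in KY-2 and 0.00 ± 0.10 in KY-1, none of which passed the test.

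Slc16a1, the monocarboxylate transporter through which lactate and pyruvate cross the plasma membrane, was at 7.29, 7.46 and 7.53 in KY-2 Myb arrays and at 6.88 and 7.14 in KY-2 GFP arrays. In KY-1 it was at 7.25, 7.33, 7.51 and 7.61 in Myb arrays and at 6.70, 6.82 and 6.98 in GFP arrays. All Myb arrays lay above all GFP arrays, in both lines. The averaged rise was 0.46 ± 0.09, or 1.38-fold (limma adjusted p = 0.0148), while neither line passed alone, at 0.42 ± 0.12 in KY-2 (adjusted p = 0.132) and 0.51 ± 0.12 in KY-1 (adjusted p = 0.0966). In KY-1 the difference was 0.80 in the array set of GFP 1 and 2, and 0.31 in that of GFP 3. The averaged call was lost without KY-1 GFP arrays 1 and 2 (adjusted p = 0.0794, limma) and without KY-2 GFP array 1 (adjusted p = 0.0889, limma). The other transporter of this family among the members, Slc16a3, which exports lactate, differed by 0.05 ± 0.10 in KY-2 and by 0.15 ± 0.10 in KY-1, and passed in neither.

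Bnip3, a HIF target that sits on mitochondria and promotes their removal by autophagy, was at 8.24, 8.22 and 8.07 in KY-2 Myb arrays against 7.52 and 7.16 in KY-2 GFP arrays. Its KY-1 values were 6.89, 6.81, 7.03 and 7.36 in Myb arrays and 7.07, 7.06 and 6.74 in GFP arrays. The KY-2 Myb arrays stood above all other arrays, and the KY-1 groups overlapped. The rise in KY-2 was 0.83 ± 0.15, or 1.78-fold (limma adjusted p = 0.0108), and the change in KY-1 was 0.06 ± 0.15 (adjusted p = 0.935). Tested directly, the effects in the lines differed by 0.77 ± 0.21, which did not pass (limma adjusted p = 0.155). Without KY-2 GFP array 2 the rise in KY-2 was 0.66 and did not pass (adjusted p = 0.122, limma). A dimmer probe set of Bnip3 read 8.30, 8.50 and 8.42 in KY-2 Myb arrays and 7.57 and 7.80 in KY-2 GFP arrays, a rise of 0.72 ± 0.11 (limma adjusted p = 0.00455). Averaged over the lines, Bnip3 rose by 0.45 ± 0.10 (limma adjusted p = 0.0428). That averaged call was lost in 7 of the 10 fits that leave out 1 replicate, with adjusted p-values up to 0.181 in limma; those 7 left out KY-1 GFP array 3, KY-1 Myb array 1, KY-1 Myb arrays 3 and 4, KY-2 GFP array 2, or any KY-2 Myb array.

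Slc2a3, a glucose transporter of high affinity, was at 7.31, 7.35 and 7.37 in KY-2 Myb arrays and at 8.15 and 7.77 in KY-2 GFP arrays. In KY-1 it was at 8.04, 8.05, 7.90 and 7.93 in Myb arrays and at 7.97, 7.91 and 7.92 in GFP arrays. The KY-2 Myb arrays were the lowest of the 12, and the KY-1 groups overlapped. Slc2a3 fell by 0.62 ± 0.11 on the log2 scale in KY-2, to 0.652 of the GFP level (limma adjusted p = 0.0104), and differed by 0.07 ± 0.11 in KY-1 (adjusted p = 0.881). The effects in the lines differed by -0.69 ± 0.15, which did not pass (limma adjusted p = 0.0752). Without KY-2 GFP array 1 the difference in KY-2 was -0.42 and did not pass (adjusted p = 0.129, limma), nor did it in a fit of the KY-2 arrays alone (adjusted p = 0.0599, limma). The other glucose transporter, Slc2a1, differed by 0.05 ± 0.09 in KY-2 and by 0.21 ± 0.09 in KY-1 (adjusted p = 0.387, limma).

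**Figure D2:**
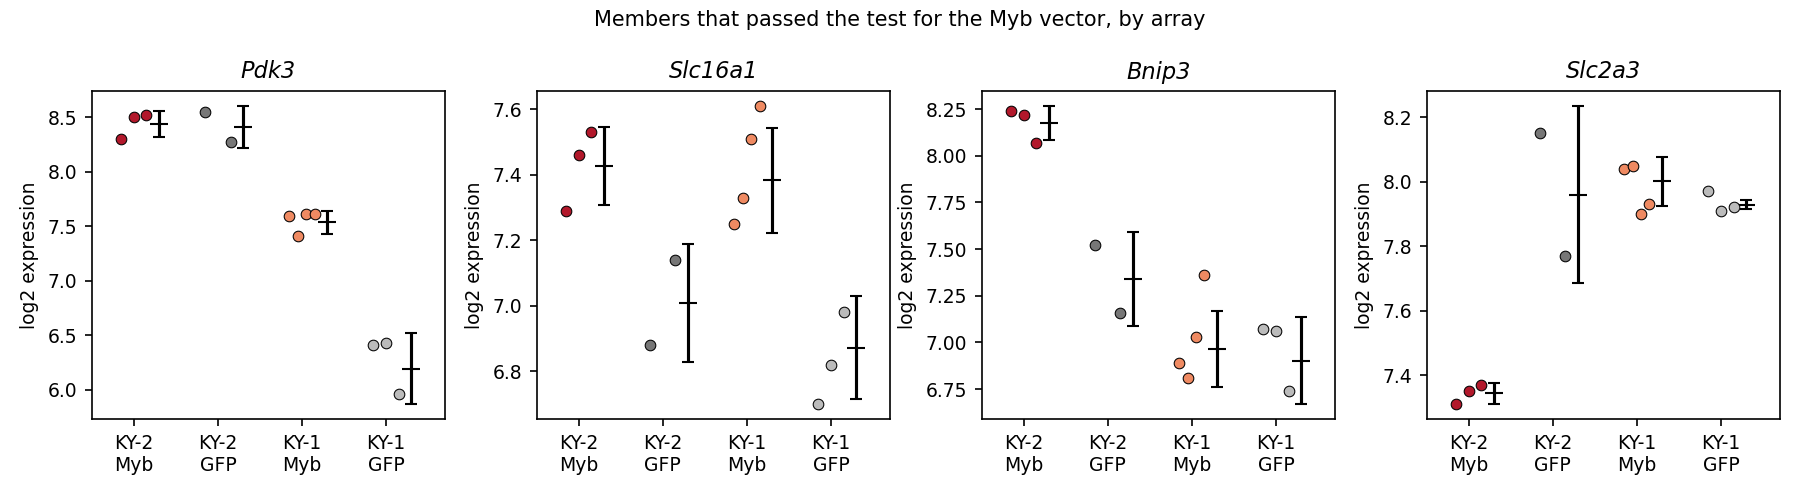
Log2 expression on each array (points) with the mean and SD over replicates (bars) of Pdk3, Slc16a1, Bnip3 and Slc2a3, in KY-2 Myb, KY-2 GFP, KY-1 Myb and KY-1 GFP cells. The Myb arrays of Slc16a1 lie above its GFP arrays in both lines, those of Pdk3 in KY-1, and those of Bnip3 in KY-2, whereas those of Slc2a3 lie below in KY-2. The axes differ between genes and do not start at 0.

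The other glycolytic enzymes did not pass the test for the Myb vector in either line or in the average. Among the upper enzymes the log2 differences ran from -0.10 to 0.18 in KY-2 and from -0.15 to 0.32 in KY-1. Tpi1, triose phosphate isomerase, marked the upper end of both ranges, and its average over the lines was 0.25 ± 0.06 (limma adjusted p = 0.0601). Among the lower enzymes the range was -0.23 to 0.21 in KY-2 and -0.06 to 0.15 in KY-1. Pkm, the last enzyme of the path, was lowest of these in KY-2, at -0.23 ± 0.08 (limma adjusted p = 0.22). Its dimmer probe set gave -0.15 ± 0.12 there. Ldha, which turns pyruvate into lactate, differed by 0.10 ± 0.07 in KY-2 and 0.10 ± 0.07 in KY-1. Hk1, the hexokinase of most cells, differed by -0.19 ± 0.12 in KY-2 and -0.18 ± 0.12 in KY-1 from its brightest probe set. The RefSeq-matched Hk1 set gave -0.42 ± 0.10 in KY-2 (limma adjusted p = 0.0588) and 0.09 ± 0.10 in KY-1.

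The oxygen sensing side likewise gave no call for the Myb vector. Hif1a, the regulated HIF subunit, differed by -0.06 ± 0.12 in KY-2 and 0.15 ± 0.12 in KY-1. Egln1, the main hydroxylase that marks HIF for destruction, differed by 0.23 ± 0.08 in KY-2 and -0.17 ± 0.08 in KY-1, and the difference of 0.40 ± 0.12 between these did not pass (limma adjusted p = 0.2). Outside Bnip3, the HIF targets differed by between -0.25 and 0.35 in KY-2 and between -0.27 and 0.42 in KY-1. Ddit4, an inhibitor of the growth kinase mTOR, gave the upper value in KY-1 (0.42 ± 0.10, limma adjusted p = 0.083), and Mxi1, a repressor that competes with Myc for Max, gave both lower values (-0.25 ± 0.11 in KY-2 and -0.27 ± 0.11 in KY-1).

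Genes of neighbouring pathways gave few calls for the Myb vector as well. Of 29 further genes of sugar transport, glycolysis and glycogen, 1 rose in KY-2, 1 rose in the average, and none changed in KY-1, or 3.45% against 2.83% of all genes in KY-2. This was Pygl, glycogen phosphorylase, at 8.93, 8.94 and 9.03 in KY-2 Myb arrays against 8.52 and 8.44 in KY-2 GFP arrays. Its rise in KY-2 was 0.49 ± 0.08 (limma adjusted p = 0.005), and without KY-2 GFP array 2 it did not pass (adjusted p = 0.0673, limma). Of 25 genes of pyruvate entry and the citrate cycle, 1 fell in KY-2, 1 fell in the average, and none changed in KY-1. This was 4% against 2.83% of all genes in KY-2, and 4% against 3.1% in the average. The gene was Pcx, pyruvate carboxylase, at 8.21, 8.46 and 8.40 in KY-2 Myb arrays against 8.89 and 8.91 in KY-2 GFP arrays, a log2 difference of -0.54 ± 0.09 (limma adjusted p = 0.00776). Averaged over the lines Pcx differed by -0.31 ± 0.06 (limma adjusted p = 0.0229), a call lost in some fits that leave out 1 replicate. Without KY-2 GFP array 1 or array 2 the call of Pcx in KY-2 was lost (adjusted p = 0.0821 and 0.0715, limma). No gene passed for the Myb vector in either line among 12 of the pentose phosphate and serine branches or 13 of the HIF machinery. At an unadjusted p under 0.05 there were 0 of 12 and 2 of 13 in KY-2, where all genes gave 13.2%, and 3 of 12 and 1 of 13 in KY-1, where all genes gave 11%. For the difference of effects between the lines 1 gene of the HIF machinery passed, Arnt2, a partner of HIF alpha subunits, with differences of 0.33 ± 0.08 in KY-2 and -0.27 ± 0.08 in KY-1 that differed by 0.60 ± 0.12 (limma adjusted p = 0.0418). That call was lost with the KY-1 array sets as a block (adjusted p = 0.0553, limma), with the replicate block (0.0555), under median centring (0.0744) and in 9 of the 10 fits that leave out 1 replicate.

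Among 33 further HIF targets, 4 rose and 1 fell in KY-2, and 3 rose and none fell in KY-1. These are 15.2% of the list against 2.83% of all genes in KY-2, and 9.09% against 1.22% in KY-1. This list was chosen with earlier results of these data known. Its shares are therefore a description of the list and no evidence about HIF targets as a class. Cxcr4, the receptor for the chemokine Cxcl12, was at 8.48, 8.47 and 8.29 in KY-2 Myb arrays against 6.85 and 6.71 in KY-2 GFP arrays, and at 6.28 to 6.49 in KY-1 Myb arrays against 5.69 to 6.02 in KY-1 GFP arrays. The groups did not overlap in either line. Cxcr4 rose 3.11-fold in KY-2 (limma adjusted p = 1.37e-05) and 1.48-fold in KY-1 (adjusted p = 0.0435), and these effects differed by 1.07 ± 0.16 on the log2 scale (adjusted p = 0.0093). The rise in KY-1 was lost in all 10 fits that leave out 1 replicate and with the KY-1 array sets as a block, and the difference of effects without KY-2 GFP array 2 (adjusted p = 0.0538, limma). Ero1a, an oxidase that forms disulfide bonds in the endoplasmic reticulum, rose 1.29-fold in KY-2 (limma adjusted p = 0.03) and 1.32-fold in KY-1 (adjusted p = 0.0367), and averaged over the lines by 0.38 ± 0.06 (adjusted p = 0.00287). Its calls within a line were lost in 4 of 10 such fits in KY-2 and 9 of 10 in KY-1. The KY-2 call of Ero1a was also lost with the replicate block (adjusted p = 0.0514, limma) and under median centring (0.0655). A fit of the KY-2 replicates alone lost it too (adjusted p = 0.0898, limma). A fit of the KY-1 replicates alone lost the KY-1 calls of Ero1a and Cxcr4 (adjusted p = 0.139 and 0.126, limma). The other genes called, named after their values were seen, were Rora, an orphan nuclear receptor, and Slc7a5, an amino acid transporter, which rose in KY-2 by 0.52 ± 0.10 and 0.49 ± 0.11, Plod2, a lysyl hydroxylase of collagen, which differed there by -0.48 ± 0.11, and Hmox1, haem oxygenase, which rose in KY-1 by 0.66 ± 0.10 (limma adjusted p = 0.0135, 0.0391, 0.0367 and 0.00779). Each of these 4 calls was lost without at least 1 replicate, that of Hmox1 without KY-1 GFP array 3 (adjusted p = 0.114, limma) and each of the others without KY-2 GFP array 1 or array 2, for Plod2 and Slc7a5 also without others. For Rora the effects in the lines also differed, by 0.83 ± 0.14 (limma adjusted p = 0.0145), a call lost without any 1 of the 4 GFP replicates. The Slc7a5 call was also lost with the replicate block (adjusted p = 0.0699, limma) and under median centring (0.0593). The median log2 difference over the 33 genes was 0.02 in KY-2 and 0.01 in KY-1.

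The lines themselves differed far more than the vectors did in these genes. With the Myb vector, 12 members were higher and 8 lower in KY-2 than in KY-1, 54.1% of the 37, against 31.6% of all genes (14.7% higher and 16.9% lower). With GFP, 11 were higher and 7 lower in KY-2, 48.6%, against 28.9% of all genes (13.6% higher and 15.2% lower). The split with GFP moved with the scaling. When arrays were centred on their medians, it was 14 higher and 5 lower among the members, and 3081 higher and 2218 lower among all genes, against 2718 higher and 3039 lower with the values as deposited. A second quantile normalization gave 13 higher and 6 lower among the members. The median log2 difference of the members was 0.03 with Myb and 0.14 with GFP, and that of all genes -0.01 and -0.04. The same direction was called with both vectors for 16 members, 10 higher and 6 lower in KY-2, or 43.2% against 22.7% of all genes, and no member was called in opposite directions.

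**Figure D3:**
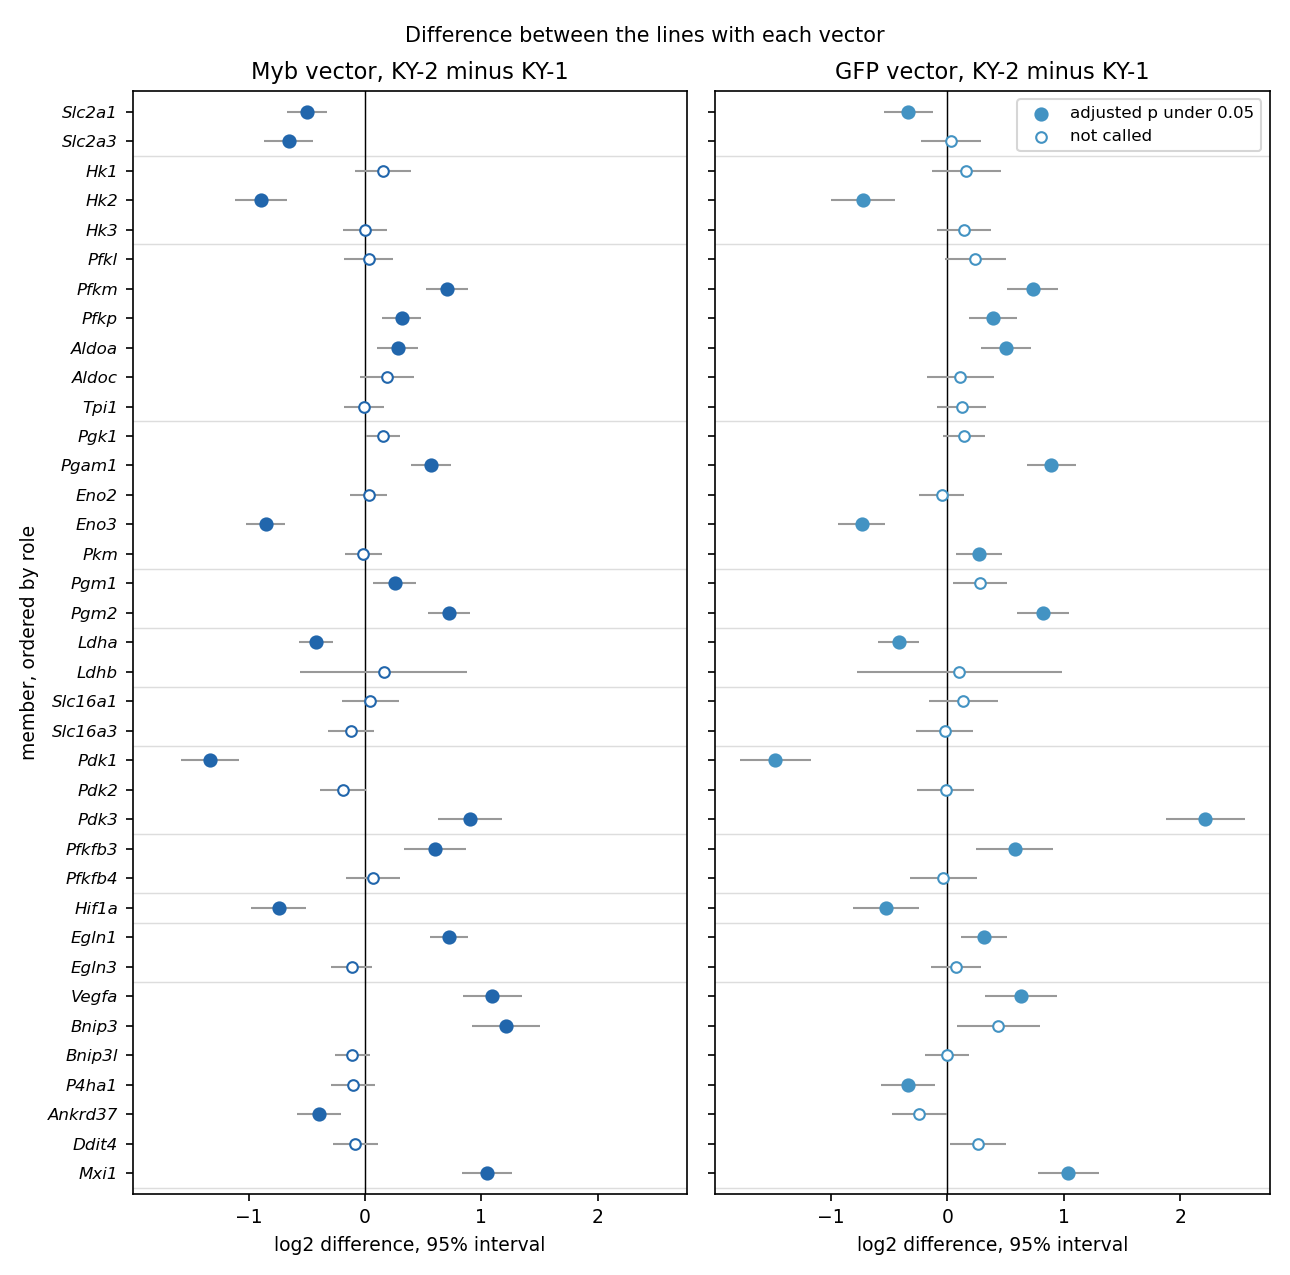
Log2 difference, KY-2 minus KY-1, with its 95% interval for each of the 37 members (rows, ordered by role) with the Myb vector (left) and with GFP (right). Filled points passed the limma test: 20 with Myb and 18 with GFP, and Pdk3 (0.90 and 2.22) and Pdk1 (-1.33 and -1.48) lie on opposite sides of 0 with both vectors.

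Line differences fell on named enzymes and did not go one way along the pathway. Of the glucose transporters, 2 of 2 were lower in KY-2 with Myb and 1 of 2 with GFP, and of the hexokinases 1 of 3 was lower with either vector. Of all genes, 16.9% were lower in KY-2 with Myb and 15.2% with GFP. Slc2a1, the transporter of basal glucose uptake, was at 8.30, 8.37 and 8.42 in KY-2 Myb arrays against 8.88, 8.94, 8.78 and 8.76 in KY-1 Myb arrays, and at 8.24 and 8.39 in KY-2 GFP arrays against 8.62, 8.62 and 8.68 in KY-1 GFP arrays. All KY-2 arrays lay below all KY-1 arrays. The differences were -0.50 ± 0.08 with Myb (limma adjusted p = 0.000415) and -0.34 ± 0.09 with GFP (adjusted p = 0.0196). The call with GFP was lost under median centring (-0.27, adjusted p = 0.0789, limma). It was also lost with the KY-1 array sets as a block (-0.28, adjusted p = 0.0582, limma). That fit put all KY-2 arrays in the set of GFP 1 and 2, and a line difference depends on this choice. The difference with GFP was -0.26 without KY-2 GFP array 1, -0.37 without KY-1 GFP arrays 1 and 2, and -0.30 without KY-1 GFP array 3, and did not pass. Slc2a3, whose values by array are given with the Myb effects, was lower in KY-2 with Myb (-0.66 ± 0.10, limma adjusted p = 0.000288) and differed by 0.03 ± 0.12 with GFP.

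Hk2, the inducible hexokinase that binds mitochondria, was at 7.24, 7.32 and 7.36 in KY-2 Myb arrays against 8.30, 8.24, 8.08 and 8.09 in KY-1 Myb arrays, and at 7.31 and 7.08 in KY-2 GFP arrays against 7.79, 7.75 and 8.07 in KY-1 GFP arrays. The lines did not overlap with either vector. The differences were -0.90 ± 0.10 with Myb and -0.73 ± 0.12 with GFP (limma adjusted p = 3.98e-05 and 0.00103). For Hk1 the choice of probe set mattered: the brightest set differed by 0.16 ± 0.13 between the lines with GFP, and the RefSeq-matched set by 0.76 ± 0.11 (limma adjusted p = 0.000406), at 7.94 and 7.67 in KY-2 GFP arrays against 7.03, 7.05 and 7.07 in KY-1 GFP arrays. With Myb neither set passed, at 0.15 ± 0.11 for the brightest and 0.25 ± 0.09 for the RefSeq-matched set (limma adjusted p = 0.348 and 0.0655).

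The upper enzymes that passed were all higher in KY-2, 3 of 6 with either vector, against 14.7% of all genes with Myb and 13.6% with GFP. Pfkm, the muscle form of phosphofructokinase, which commits sugar to glycolysis, was at 6.96, 7.13 and 7.09 in KY-2 Myb arrays against 6.41, 6.23, 6.41 and 6.45 in KY-1 Myb arrays, and at 7.13 and 7.16 in KY-2 GFP arrays against 6.30, 6.41 and 6.47 in KY-1 GFP arrays. The platelet form, Pfkp, was at 10.18, 10.13 and 10.12 in KY-2 Myb arrays against 9.91, 9.88, 9.70 and 9.67 in KY-1 Myb arrays, and at 10.10 and 10.14 in KY-2 GFP arrays against 9.76, 9.72 and 9.72 in KY-1 GFP arrays. For both forms every KY-2 array exceeded every KY-1 array. The differences of Pfkm were 0.70 ± 0.08 with Myb and 0.73 ± 0.10 with GFP (limma adjusted p = 4.9e-05 and 0.000206). Those of Pfkp were 0.32 ± 0.08 and 0.39 ± 0.09 (limma adjusted p = 0.00806 and 0.0088), and the one with GFP had an adjusted p of 0.0573 without KY-2 GFP array 2. Pfkl, the liver form, differed by 0.03 ± 0.10 with Myb and 0.24 ± 0.12 with GFP, and passed with neither.

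Aldoa, the aldolase that splits the phosphorylated sugar into triose phosphates, was at 12.15, 12.21 and 12.17 in KY-2 Myb arrays against 11.94, 11.99, 11.73 and 11.76 in KY-1 Myb arrays, and at 12.30 and 12.24 in KY-2 GFP arrays against 11.73, 11.73 and 11.81 in KY-1 GFP arrays. Here too the lines did not overlap. The differences were 0.28 ± 0.08 with Myb (limma adjusted p = 0.0184) and 0.50 ± 0.10 with GFP (adjusted p = 0.00235). The call with Myb was lost without KY-1 Myb arrays 3 and 4, and without KY-2 Myb array 2 (adjusted p up to 0.0675 over these, limma). Pfkfb3, which makes a fructose bisphosphate that activates phosphofructokinase, was at 5.73, 5.97 and 5.73 in KY-2 Myb arrays against 5.31, 5.27, 5.03 and 5.08 in KY-1 Myb arrays, and at 6.03 and 5.63 in KY-2 GFP arrays against 5.01, 5.27 and 5.37 in KY-1 GFP arrays. It was higher in KY-2 by 0.60 ± 0.12 with Myb and 0.58 ± 0.15 with GFP (limma adjusted p = 0.0027 and 0.013). Without KY-2 GFP array 1, or without KY-1 GFP arrays 1 and 2, the second of these did not pass (adjusted p up to 0.133, limma), and 7 of the 12 arrays lay below their median for this gene.

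The lower enzymes went both ways. Pgam1, phosphoglycerate mutase, was at 10.74, 10.74 and 10.68 in KY-2 Myb arrays against 10.26, 10.18, 10.02 and 10.02 in KY-1 Myb arrays, and at 10.92 and 10.88 in KY-2 GFP arrays against 9.95, 9.98 and 10.05 in KY-1 GFP arrays. Eno3, the muscle form of enolase, was at 8.0, 8.23 and 8.11 in KY-2 Myb arrays against 8.93, 8.98, 9.0 and 8.97 in KY-1 Myb arrays, and at 8.23 and 8.29 in KY-2 GFP arrays against 9.01, 8.97 and 9.01 in KY-1 GFP arrays. Pgam1 was thus high on every KY-2 array and Eno3 low on every KY-2 array. Pgam1 differed by 0.57 ± 0.08 with Myb and 0.89 ± 0.10 with GFP (limma adjusted p = 0.000193 and 3.4e-05), and a dimmer Pgam1 probe set by 0.64 ± 0.09 and 0.99 ± 0.11. Eno3 differed by -0.85 ± 0.08 with Myb and -0.74 ± 0.09 with GFP (limma adjusted p = 5.86e-06 and 0.000111). Pkm averaged 10.74 ± 0.03 (SD, n = 3) in KY-2 Myb cells against 10.75 ± 0.07 (SD, n = 3) in KY-1 Myb cells, and 10.97 ± 0.00 (SD, n = 2) in KY-2 GFP cells against 10.70 ± 0.10 (SD, n = 2) in KY-1 GFP cells. It was higher in KY-2 with GFP by 0.27 ± 0.09 (limma adjusted p = 0.0399), a call lost under 10 of 22 alternatives, among them 6 fits that leave out 1 replicate. A dimmer Pkm probe set differed by 0.20 ± 0.13 with GFP and did not pass (limma adjusted p = 0.308). Pgk1, phosphoglycerate kinase, differed by 0.15 ± 0.07 with Myb and 0.14 ± 0.08 with GFP, and did not pass.

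Of the genes listed as phosphoglucomutases, Pgm2 was higher in KY-2 with both vectors, and Pgm1 passed with Myb only. Pgm2 was at 8.95, 9.22 and 9.11 in KY-2 Myb arrays against 8.35, 8.34, 8.42 and 8.41 in KY-1 Myb arrays, and at 9.29 and 9.17 in KY-2 GFP arrays against 8.41, 8.33 and 8.45 in KY-1 GFP arrays. No KY-2 array came near a KY-1 array, and the differences were 0.72 ± 0.08 with Myb and 0.82 ± 0.10 with GFP (limma adjusted p = 4.64e-05 and 0.000102). Pgm1 averaged 7.26 ± 0.03 (SD, n = 3) in KY-2 Myb cells against 7.0 ± 0.15 (SD, n = 3) in KY-1 Myb cells, and 7.13 ± 0.05 (SD, n = 2) in KY-2 GFP cells against 6.85 ± 0.07 (SD, n = 2) in KY-1 GFP cells. It passed with Myb (0.25 ± 0.09, limma adjusted p = 0.0412) and not with GFP (0.28 ± 0.10, adjusted p = 0.067), and the first call was lost under 13 of 22 alternatives.

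**Figure D4:**
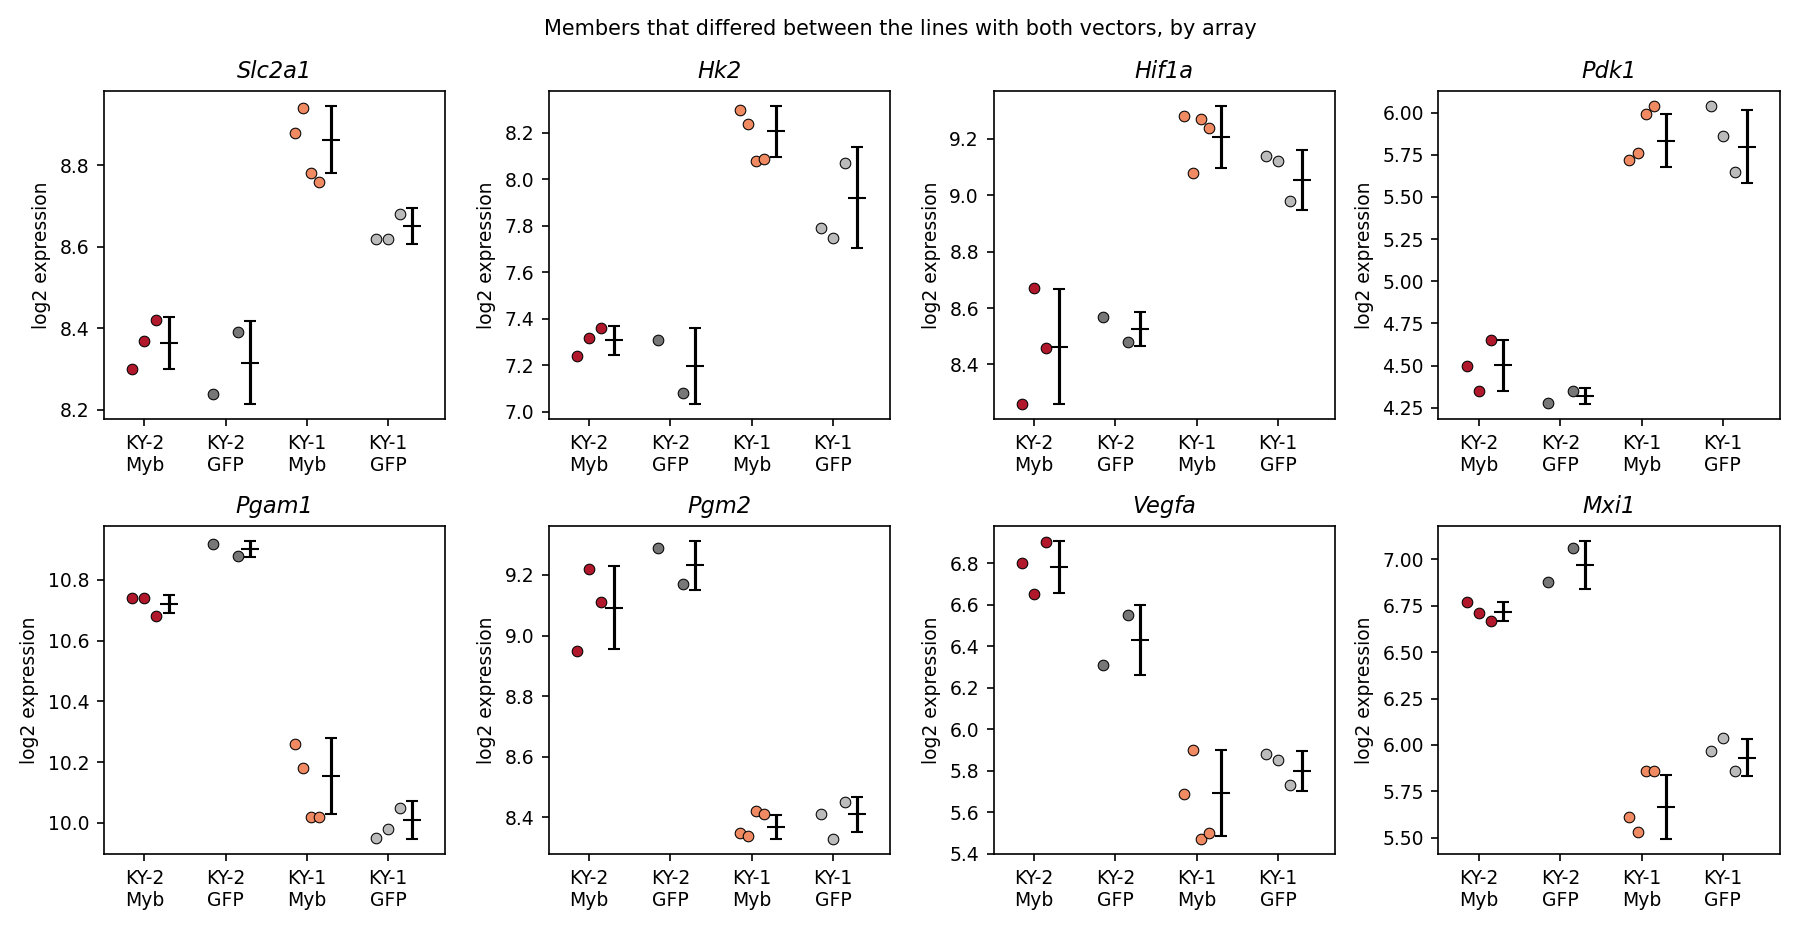
Log2 expression on each array (points) with the mean and SD over replicates (bars) of 8 members that differed between the lines with both vectors. Slc2a1, Hk2, Hif1a and Pdk1 (top row) were lower, and Pgam1, Pgm2, Vegfa and Mxi1 (bottom row) higher, on every KY-2 array than on any KY-1 array. The axes differ between genes and do not start at 0.

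At the fate of pyruvate, the kinases that inhibit pyruvate dehydrogenase differed in opposite directions. Pdk1, a HIF target, was at 4.50, 4.35 and 4.65 in KY-2 Myb arrays against 5.72, 5.76, 5.99 and 6.04 in KY-1 Myb arrays, and at 4.28 and 4.35 in KY-2 GFP arrays against 6.04, 5.86 and 5.65 in KY-1 GFP arrays. All 5 KY-2 arrays were below their array median for Pdk1 and all KY-1 arrays above it. Pdk1 was lower in KY-2, at -1.33 ± 0.11 with Myb (limma adjusted p = 4e-06) and -1.48 ± 0.14 with GFP (adjusted p = 1.1e-05). Its level in KY-2 has no measured background, so the size of this difference is uncertain. Pdk3 was higher in KY-2 by 0.90 ± 0.13 with Myb (1.87-fold, limma adjusted p = 0.000196) and by 2.22 ± 0.15 with GFP (4.65-fold, adjusted p = 1.06e-06). These comparisons share arrays with the Myb effects on Pdk3 and are not separate evidence. Ldha was at 11.38, 11.38 and 11.36 in KY-2 Myb arrays against 11.83, 11.83, 11.70 and 11.73 in KY-1 Myb arrays, and at 11.28 and 11.26 in KY-2 GFP arrays against 11.68, 11.66 and 11.71 in KY-1 GFP arrays. Every KY-2 array was below every KY-1 array, and the differences were -0.42 ± 0.07 with Myb and -0.42 ± 0.08 with GFP (limma adjusted p = 0.00049 and 0.00229). Ldhb, the heart form, and both lactate transporters passed with neither vector.

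In the oxygen response, Hif1a was lower in KY-2 and its hydroxylase Egln1 higher. Hif1a was at 8.26, 8.67 and 8.46 in KY-2 Myb arrays against 9.28, 9.08, 9.27 and 9.24 in KY-1 Myb arrays, and at 8.57 and 8.48 in KY-2 GFP arrays against 9.14, 9.12 and 8.98 in KY-1 GFP arrays. Egln1 was at 8.90, 9.08 and 8.93 in KY-2 Myb arrays against 8.29, 8.29, 8.20 and 8.17 in KY-1 Myb arrays, and at 8.78 and 8.71 in KY-2 GFP arrays against 8.42, 8.43 and 8.43 in KY-1 GFP arrays. Neither gene overlapped between the lines. Hif1a differed by -0.74 ± 0.11 with Myb and -0.53 ± 0.13 with GFP (limma adjusted p = 0.000238 and 0.00982), and Egln1 by 0.72 ± 0.07 with Myb and 0.32 ± 0.09 with GFP (limma adjusted p = 1.93e-05 and 0.022). With GFP, the Hif1a call was lost without KY-1 GFP arrays 1 and 2 or KY-2 GFP array 2 (adjusted p up to 0.0755, limma), and the Egln1 call without any 1 of the 4 GFP replicates (adjusted p up to 0.126, limma). HIF is controlled mainly through the stability of its protein, which these arrays do not measure. Egln3, another hydroxylase and itself a HIF target, was below the array median throughout and passed with neither vector.

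HIF targets outside glycolysis did not follow 1 direction between the lines. With Myb 3 of 7 were higher and 1 lower in KY-2, against 14.7% and 16.9% of all genes. With GFP 2 were higher and 1 lower, against 13.6% and 15.2% of all genes. Vegfa, the growth factor of blood vessels, was at 6.80, 6.65 and 6.90 in KY-2 Myb arrays against 5.69, 5.90, 5.47 and 5.50 in KY-1 Myb arrays, and at 6.31 and 6.55 in KY-2 GFP arrays against 5.88, 5.85 and 5.73 in KY-1 GFP arrays. Mxi1 was at 6.77, 6.71 and 6.67 in KY-2 Myb arrays against 5.61, 5.53, 5.86 and 5.86 in KY-1 Myb arrays, and at 6.88 and 7.06 in KY-2 GFP arrays against 5.97, 6.04 and 5.86 in KY-1 GFP arrays. Both genes were higher on every KY-2 array. Vegfa differed by 1.09 ± 0.12 with Myb (2.13-fold, limma adjusted p = 2.41e-05) and 0.63 ± 0.14 with GFP (1.55-fold, adjusted p = 0.00573), the second at an adjusted p of 0.0584 without KY-2 GFP array 2. Mxi1 differed by 1.05 ± 0.10 with Myb and 1.04 ± 0.12 with GFP, about 2.07-fold and 2.05-fold (limma adjusted p = 8.54e-06 and 5.72e-05).

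Bnip3 was higher in KY-2 with Myb, by 1.21 ± 0.13 (2.31-fold, limma adjusted p = 2.95e-05), and its difference with GFP was 0.44 ± 0.16 (adjusted p = 0.0647). Its dimmer probe set passed with GFP too, at 1.08 ± 0.12 (limma adjusted p = 4.69e-05). Ankrd37, an ankyrin repeat gene listed among HIF targets, was at 6.59, 6.73 and 6.68 in KY-2 Myb arrays against 6.98, 7.09, 7.18 and 7.06 in KY-1 Myb arrays, and at 6.45 and 6.71 in KY-2 GFP arrays against 6.85, 6.88 and 6.78 in KY-1 GFP arrays. The lines did not overlap with either vector, and the difference passed with Myb (-0.40 ± 0.09, limma adjusted p = 0.00447) and not with GFP (-0.24 ± 0.11, adjusted p = 0.119). P4ha1, a subunit of the enzyme that hydroxylates collagen, averaged 5.86 ± 0.10 (SD, n = 3) in KY-2 Myb cells against 5.96 ± 0.05 (SD, n = 3) in KY-1 Myb cells, and 5.87 ± 0.03 (SD, n = 2) in KY-2 GFP cells against 6.22 ± 0.18 (SD, n = 2) in KY-1 GFP cells. It was lower in KY-2 with GFP (-0.34 ± 0.10, limma adjusted p = 0.0306), a call lost under 9 of 21 alternatives. Among these was the block of KY-1 array sets, which put all KY-2 arrays in the set of GFP 1 and 2. Bnip3l and Ddit4 passed with neither vector.

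The neighbouring pathways differed between the lines as well. Of the 25 genes of pyruvate entry and the citrate cycle, 14 were higher and 1 lower in KY-2 with Myb, and 14 higher and none lower with GFP, or 60% against 31.6% of all genes with Myb and 56% against 28.9% with GFP. Their median log2 difference was 0.36 with Myb and 0.36 with GFP. Pcx was among them, at 8.21 to 8.46 in KY-2 Myb arrays against 7.48 to 7.64 in KY-1 Myb arrays, and at 8.89 and 8.91 in KY-2 GFP arrays against 7.60 to 7.63 in KY-1 GFP arrays. In the other lists the directions were mixed with Myb: 4 higher and 5 lower of 29 in further sugar metabolism, 3 and 4 of 12 in the pentose phosphate and serine branches, 4 and 5 of 13 in the HIF machinery, and 7 and 6 of 33 among further HIF targets. With GFP these counts were 4 higher and 4 lower, 3 and 2, 4 and 5, and 8 and 10. In this order the shares called were 31%, 58.3%, 69.2% and 39.4% with Myb, against 31.6% of all genes. With GFP they were 27.6%, 41.7%, 69.2% and 54.5%, against 28.9% of all genes.

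Cell type markers moved with the line and with the vector. Of the 14 NK markers, 3 were higher and 8 lower in KY-2 than in KY-1 with Myb, and 4 higher and 7 lower with GFP. This was 78.6% in each, against 31.6% of all genes with Myb and 28.9% with GFP. The mean level of the 9 T cell markers on an array was 7.11 to 7.23 in KY-2 Myb and 7.23 to 7.35 in KY-2 GFP cells, against 5.42 to 5.50 in KY-1 Myb and 5.26 to 5.30 in KY-1 GFP cells. Of these 9, 4 were higher and 1 lower in KY-2 with Myb (55.6%), and 4 higher and 2 lower with GFP (66.7%). Their log2 differences had medians of 0.00 with Myb and -0.02 with GFP and reached 5.41 and 7.68, so the means rested on part of the list. The mean over the 8 mast cell and basophil markers was 4.28 to 4.43 in KY-2 Myb and 4.27 to 4.38 in KY-2 GFP cells, against 5.22 to 5.36 in KY-1 Myb and 4.97 to 5.02 in KY-1 GFP cells. Of these 8, 3 were lower and 0 higher in KY-2 with either vector (37.5%). With the Myb vector, 5 of 14 NK markers fell in the average of the lines (35.7%, against 3.1% of all genes). In KY-2 3 fell (21.4%, against 2.83% of all genes), and in KY-1 2 fell and 1 rose (21.4%, against 1.22%). The mean level of the 14 NK markers was 9.76 to 9.81 in KY-2 Myb against 9.97 to 10.1 in KY-2 GFP cells, and 9.89 to 9.97 in KY-1 Myb against 10.1 to 10.2 in KY-1 GFP cells. Of the T cell markers 2 of 9 fell in KY-2 (22.2%) and 1 rose in KY-1 (11.1%), by 2.52 on the log2 scale. In KY-1 2 of 8 mast cell and basophil markers rose (25%), by up to 1.76, and 1 of 10 myeloid markers fell (10%). The share of all genes was 2.83% in KY-2 and 1.22% in KY-1. No B cell or erythroid marker passed for Myb in either line. The part of these markers in the results on glycolysis and HIF genes was not tested.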

How the data were processed

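RNA from 12 arrays was analysed. The deposited values are log2 expression per probe set, and the submitters' processing notes name Partek and RMA; the sources used here give neither versions nor options. Of 35556 probe sets, 21789 had 1 gene symbol, 1621 several and 12146 none listed, and the brightest set of each gene was used. With no detection calls, low values have no measured background, and precision is limited by how few arrays there are. One limma model (limma 3.58.1, R 4.3.3) of the 4 group means gave all contrasts, with Benjamini-Hochberg adjustment over 19938 genes and a threshold of 0.05. SE are those of the model, with 6 residual and 4.89 prior degrees of freedom. Background shares count all genes. The members, gene lists, naming rule (members called in any contrast, the 20 with the smallest p by array; 2 genes per further list called for Myb; Myb) and tests were chosen with earlier results of these data known. The tests were tested on simulated data.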

Additional observations from a re-analysis of the deposited data

Results flagged for a closer look

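The Myb effect differed between the lines for Pdk3, by -1.32 on the log2 scale (KY-2 minus KY-1, limma adjusted p = 0.00895), with a difference of 0.03 in KY-2 and a rise of 1.34 in KY-1. It also differed for 3 genes outside the 40: Cxcr4 by 1.07 (limma adjusted p = 0.0093), with rises of 1.64 in KY-2 and 0.56 in KY-1, Rora by 0.83 (adjusted p = 0.0145), with 0.52 in KY-2 and -0.31 in KY-1, and Arnt2 by 0.60 (adjusted p = 0.0418), with 0.33 in KY-2 and -0.27 in KY-1.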

How the results depend on the processing

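Of 45 calls of members in the 6 contrasts, 23 held in every alternative tried for them (up to 22 each), 22 were lost in at least 1, and none changed sign. The calls held throughout were 21 of 38 between the lines and 2 of 7 for Myb, those of Pdk3 in KY-1 and in the average. These 2 calls share the KY-1 arrays and are not separate evidence. The Pdk3 average of 0.69 combines a rise of 1.34 in KY-1 with a difference of 0.03 in KY-2. The probe set matched to Hk1 transcripts and the block of KY-1 array sets were chosen after seeing the data, and left every count of members called within 1.5 times. That block put all KY-2 arrays in the set of GFP 1 and 2, and its differences between the lines depend on this choice. With 12 arrays as separate replicates, 2 members were called for Myb in KY-2, 4 in KY-1, 7 in the average and 3 for the difference of effects, where the reported counts are 2, 1, 3 and 1. With the replicate block these were 2, 3, 3 and 2, and the block left 20 called between the lines with either vector. The arrays share only a number: 2 of 15 same-numbered pairs had deviations correlated above 0.1 (-0.465 to 0.278). Genes with a mean of at least 6 gave 3, 3, 6 and 2, and a trended prior variance gave 4, 3, 5 and 3. Second quantile normalization and median centring each gave 2 in KY-1. Fits of only the replicates compared gave 1 in KY-2. A threshold of 1.5-fold left 1 in the average, 13 between the lines with Myb and 9 with GFP, where 20 and 18 are reported. Leaving out 1 replicate gave 1 to 2 in KY-2, 1 to 1 in KY-1, 2 to 4 in the average, 0 to 2 for the difference (0 without KY-2 GFP array 1), 18 to 19 between the lines with Myb and 13 to 19 with GFP; an arm left with 1 array is assumed to vary like the others. Over all genes the counts ran from 182 (without KY-2 GFP array 1) to 888 in KY-2 (565 reported), 72 (without KY-1 GFP array 3) to 823 in KY-1 (244), 142 to 1143 in the average (619), 88 (without KY-2 GFP array 1) to 427 for the difference (168), 2312 to 7211 between the lines with Myb (6305) and 2716 to 7069 with GFP (5757). The causes were not tested.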
